A study of Mus musculus with 4 samples.

Results

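The respiratory chain and ATP synthase are built from proteins of 2 genomes, and the genes of both were followed here across 4 libraries of regenerating mouse digit tips. Members were chosen by gene name. Names that begin with mt-Nd, mt-Co, mt-Atp or mt-Cytb gave 13 mitochondrial genes, and names of the Nduf, Uqcr, Cox4 to Cox8 and Atp5 families gave 80 nuclear genes, with 4 names marked as pseudogenes (-ps) left out. Together they are 93 of 45706 genes in the table. By complex, the mitochondrial members are 7 of complex I, 1 of complex III, 3 of complex IV and 2 of complex V. The nuclear members, placed by gene name alone, are 37 of complex I, 8 of complex III, 18 of complex IV and 17 of complex V. A name such as Atp5sl is thus counted under complex V whatever the protein does.

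Complex I takes electrons from NADH, complex III passes them from ubiquinol to cytochrome c, complex IV hands them to oxygen, and complex V makes ATP from the proton gradient that the other complexes build. The mitochondrial mRNAs are cut out of long transcripts that read through most of each DNA strand, and tRNAs lie between many of them. Each nuclear member has a promoter of its own, its protein is imported, and the subunits of both origins must meet in fixed proportions. Among the cells of a digit tip, osteoclasts are known to be rich in mitochondria.

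The libraries are whole digit tips 14 days after amputation, with 1 library for each genotype: wildtype, Sp6 cKO, Sp8 cKO and the double Sp6+Sp8 cKO, where cKO is conditional knockout. Where 4 values are listed with no library names, they are in this order. Sp6 and Sp8 are zinc finger transcription factors of the epidermis. Conditional knockouts were induced by tamoxifen, 75 mg/kg each day for 5 days with 5 days of rest before amputation, and the 3 cKO groups share this treatment. The sources used here do not say whether wildtype mice received tamoxifen, and give no Cre driver, strain, age, sex or number of animals or digits in a library. The labels put the 3 cKO libraries in batch 1 and the wildtype library in batch 3. In any comparison with wildtype, batch and knockout therefore cannot be told apart, and the comparisons of cKO with cKO stay inside batch 1.

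The wildtype library held 21834883 counts, that of Sp6 cKO 13054843, that of Sp8 cKO 12588511 and that of Sp6+Sp8 cKO 15146015. With 1 library a group there is no replicate check and no test, each comparison describes 2 libraries, and intervals are 95% exact (Clopper-Pearson) intervals that cover counting error only. Reads were amplified by PCR with no molecular identifiers and so are not independent molecules, and even these intervals may be too narrow. Sp6 stood at 97.7, 29.2, 95.6 and 57.8 CPM (counts scaled to library size) in wildtype, the Sp6 cKO, the Sp8 cKO and the Sp6+Sp8 cKO library, and Sp8 at 63.9, 66.1, 16.8 and 13.4 CPM in that order. Sp6 in the library labelled Sp6+Sp8 cKO thus lay between Sp6 cKO and wildtype. Of the markers of the tissue, the 6 of basal keratinocytes summed to between 4784 and 5162 CPM, while the 8 nail and hair keratins found summed to 4925, 5062, 5612 and 2684 CPM in that order. These are bulk samples, so fewer cells of a type and less RNA per cell cannot be told apart.

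The mitochondrial genes are packed so closely that some overlap, and stretches of the mitochondrial genome also lie in the nuclear genome. Both bear on how reads are shared out, so the sequences are shown first. They are from GENCODE M21 transcripts on GRCm38, 5′ to 3′. Capitals in the first pair mark the bases that belong to both genes, which are 43 bases where mt-Atp8 runs into mt-Atp6 (chrM:7907-7989, plus strand) and 7 bases where mt-Nd4l runs into mt-Nd4 (chrM:10147-10193, plus strand). Each overlap opens with the ATG of the second gene.
mt-Atp8/mt-Atp6: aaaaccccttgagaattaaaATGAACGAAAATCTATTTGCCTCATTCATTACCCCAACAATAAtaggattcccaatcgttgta
mt-Nd4l/mt-Nd4: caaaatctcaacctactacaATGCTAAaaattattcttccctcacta

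On chromosome 1, between 24611535 and 24616197, GENCODE annotates a row of pseudogenes that copy 7 of the 13 mitochondrial genes. Gm28661 aligned to mt-Co2 (chrM:7013-7696) over 681 bases with 0 mismatches, Gm10925 to mt-Atp6 over 678 bases with 0, Gm28437 to mt-Co3 over 783 bases with 0, Gm28439 to mt-Nd4 over 876 bases with 0, and Gm10222 to mt-Nd4l over 294 bases with 0. Gm28438 differed from mt-Nd3 by T3C over 345 bases and Gm29216 from mt-Co1 by A1066T over 483 bases, with positions counted from 1 at the first base of the mitochondrial gene. The first line below is the start of mt-Co2 (chrM:7013-7072), letter for letter that of its copy. The other lines set mt-Nd3 (chrM:9459-9486) and mt-Co1 (chrM:6390-6418) beside their copies (chr1:24613092-24613119 and chr1:24616160-24616188, both on the minus strand), with the base that differs in capitals.
mt-Co2 and Gm28661: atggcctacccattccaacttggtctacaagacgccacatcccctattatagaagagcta
mt-Nd3: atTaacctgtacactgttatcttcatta
Gm28438: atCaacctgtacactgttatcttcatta
mt-Co1: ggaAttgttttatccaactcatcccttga
Gm29216: ggaTttgttttatccaactcatcccttga

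A read that falls inside such an identical stretch matches both places. In the deposited table both the gene and its copy hold counts, and the sources used here do not say how such reads were divided. The mt-Co2 copy held 69.7% of the counts of gene and copy together in wildtype, and 79.2%, 77.7% and 72.0% in the cKO libraries in the order above. For mt-Nd3 the copy held 77.3%, 88.3%, 89.0% and 85.9%, and for mt-Nd4l 82.4%, 80.3%, 81.1% and 75.9%, in the same order of libraries. The share was 40.7% to 50.3% for mt-Atp6, 48.9% to 52.8% for mt-Co3, 6.5% to 12.9% for mt-Nd4 and 0.068% to 0.12% for mt-Co1, whose copy covers only part of the gene. The 6 mitochondrial genes without such a copy were mt-Nd1, mt-Nd2, mt-Nd5, mt-Nd6, mt-Cytb and mt-Atp8. Where a gene other than mt-Co1 has a copy, values are given below as deposited and with the counts of the copy added, an alternative chosen after seeing the data.

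**Figure D1:**
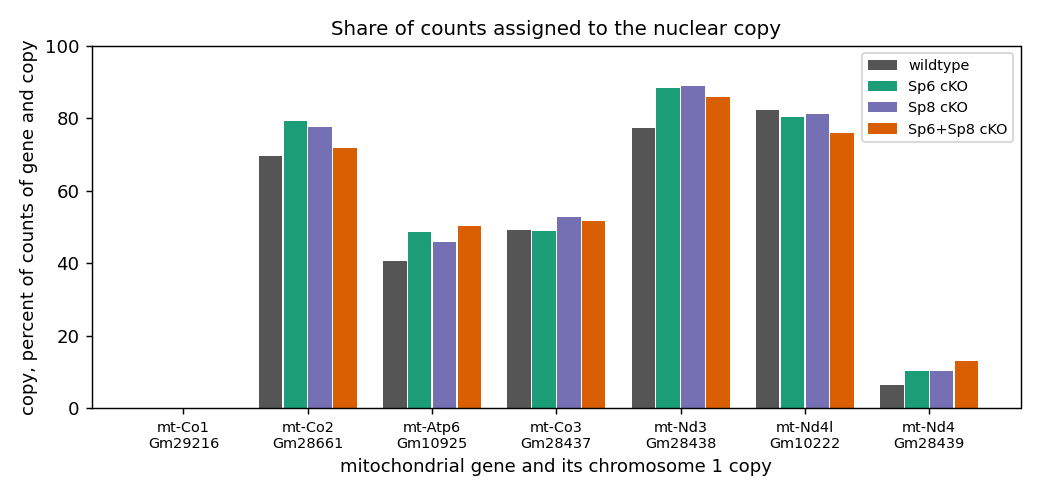
Share of the counts of a mitochondrial gene and its chromosome 1 copy that was assigned to the copy, in percent, for 7 genes in the 4 libraries (bars, 1 library each, no error bars). The copies of mt-Co2, mt-Nd3 and mt-Nd4l held most of the counts, and for mt-Nd3 the share ran from 77.3% in wildtype to 89.0% in Sp8 cKO.

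Transcripts of the mitochondrial genome made up a larger part of the Sp6+Sp8 cKO library than of the other 3, while those of the nuclear members were near the same level in all cKO libraries. The 13 mitochondrial mRNAs summed to 47439 CPM in wildtype, to 47613 and 43454 CPM in the Sp6 cKO and Sp8 cKO libraries, and to 61335 CPM in Sp6+Sp8 cKO. The 80 nuclear members summed to 2639, 2449, 2479 and 2433 CPM in that order. The mitochondrial sum is therefore highest in Sp6+Sp8 cKO and lowest in Sp8 cKO, while the nuclear sum is highest in wildtype and nearly level among the 3 cKO libraries.

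Within batch 1, the log2 ratio of the mitochondrial sum was 0.37 (95% interval 0.36 to 0.37) for Sp6+Sp8 cKO against Sp6 cKO and 0.50 (0.49 to 0.50) against Sp8 cKO. The same ratios of the nuclear sum were -0.01 (-0.03 to 0.01) and -0.03 (-0.05 to -0.0049). Sp8 cKO against Sp6 cKO, the remaining pair within the batch, gave -0.13 (-0.14 to -0.13) for the mitochondrial sum and 0.02 (-0.0054 to 0.04) for the nuclear sum. These 3 comparisons share libraries. The smallest difference of the mitochondrial sum that involved Sp6+Sp8 cKO was thus larger than the difference between the other cKO libraries, and no comparison in the batch moved the nuclear sum by more than 0.03. Scaling by library totals without the mitochondrial genes turned the nuclear ratio against Sp8 cKO to 0.02.

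Against wildtype, the mitochondrial sum had a log2 ratio of 0.01 in Sp6 cKO (-0.0061 when scaled by library totals), -0.13 in Sp8 cKO and, with both genes targeted, 0.37. The nuclear sum had -0.11 (-0.13 to -0.09), -0.09 (-0.11 to -0.07) and -0.12 (-0.14 to -0.10) in that order. All 3 cKO libraries thus had a nuclear sum slightly below wildtype, with 1 wildtype library shared by the comparisons and a batch that differs.

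**Figure D2:**
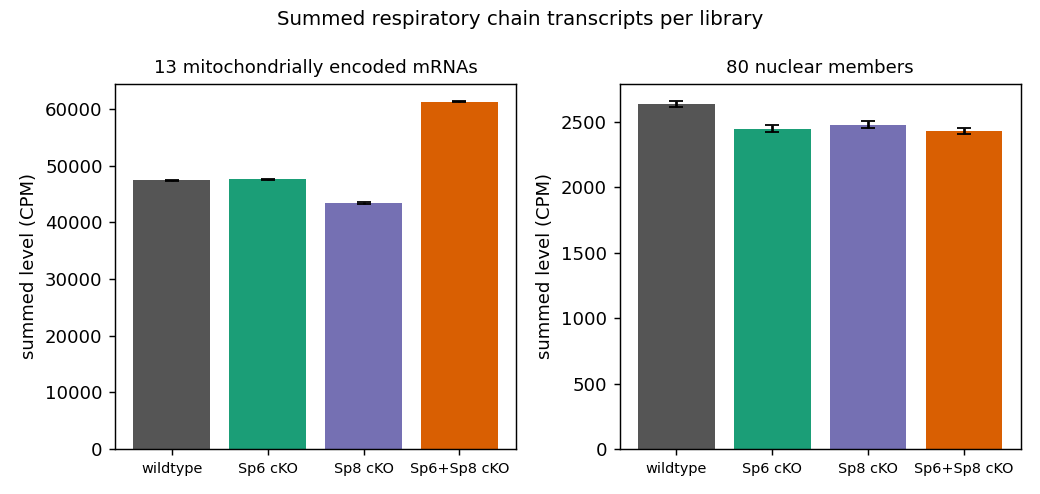
Summed level in CPM of the 13 mitochondrially encoded mRNAs (left) and of the 80 nuclear members (right) in the 4 libraries, with 95% intervals for counting error (bars start at 0). The mitochondrial sum was 61335 CPM in Sp6+Sp8 cKO and 43454 to 47613 CPM in the others, while the nuclear sums lay between 2433 and 2639 CPM.

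Counts of mitochondrial mRNAs per count of nuclear members were 17.97 (17.82 to 18.13) in wildtype, 19.44 (19.22 to 19.66) in Sp6 cKO, 17.53 (17.33 to 17.73) in Sp8 cKO and 25.20 (24.95 to 25.47) in Sp6+Sp8 cKO. This ratio needs no scaling between libraries. With the copies added to the mitochondrial counts it was 21.7, 23.7, 21.5 and 30.6 in that order, so the order of the libraries is the same. By complex, the ratio in wildtype and in Sp6+Sp8 cKO was 22.5 and 30.1 for complex I, 16.5 and 22.7 for complex III, 54.0 and 87.9 for complex IV, and 3.03 and 3.72 for complex V. With copies added it was 23.9 and 32.4 for complex I, 71.2 and 112.7 for complex IV, and 4.91 and 7.09 for complex V. In each complex, with and without the copies, the Sp6+Sp8 cKO library had the highest ratio of the 4.

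Single genes were counted by a size rule in place of a test. A gene was past the 1.2-fold rule where one library had at least 1.2 times the level of the other. The higher library also had to reach 1 CPM, and the 95% interval of the ratio had to leave out 1. The 2-fold rule was the same with a ratio of at least 2. For both rules the size was read from the log2 ratio, which includes a prior count of 2. At low counts it is smaller than the plain ratio of CPM. All 13 mitochondrial genes and 75 of the 80 nuclear members reached the CPM floor in each comparison. For Sp6+Sp8 cKO against Sp6 cKO, all 13 mitochondrial genes were higher by the 1.2-fold rule and 0 were past the 2-fold rule, where 11.2% of 16848 genes were higher by the 1.2-fold rule and 3.97% past the 2-fold rule in either direction. Against Sp8 cKO, again all 13 were higher by the 1.2-fold rule and 0 past the 2-fold rule, beside 11.8% and 4.68% of 16889 genes. The 13 genes come from shared long transcripts, so their count is not a count of separate events. For Sp8 cKO against Sp6 cKO 0 of the 13 were past either rule, beside 6.71% higher and 5.82% lower by the 1.2-fold rule and 3.10% past the 2-fold rule among 16912 genes.

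The median log2 ratio of the 13 was 0.39 for Sp6+Sp8 cKO against Sp6 cKO, 0.54 against Sp8 cKO and -0.12 for Sp8 cKO against Sp6 cKO, where the median of all genes compared was -0.01, -0.02 and 0.00. Of the 13, 12 had their highest level in Sp6+Sp8 cKO and 1, mt-Nd3, in wildtype, and 11 had their lowest in Sp8 cKO. For all genes, the library with the highest or lowest level was not counted.

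The complex I subunits encoded in mitochondria form its membrane arm, which pumps protons. mt-Nd1 (chrM:2751-3707) stood at 6044, 6007, 5205 and 7808 CPM. mt-Nd2 (chrM:3914-4951) stood at 2610, 2514, 2155 and 3183 CPM, and mt-Nd5 (chrM:11742-13565) at 5138, 5334, 4930 and 6662 CPM. In these 3 genes, which have no near-identical copy, Sp6+Sp8 cKO was highest and Sp8 cKO lowest, with log2 ratios of Sp6+Sp8 cKO against Sp6 cKO of 0.38, 0.34 and 0.32. mt-Nd6 (chrM:13552-14070) is the member read from the other strand, and it stood at 452, 380, 360 and 528 CPM. Its log2 ratio was 0.48 against Sp6 cKO and 0.55 against Sp8 cKO, so the mRNA read from the other strand was higher in Sp6+Sp8 cKO too. The end of mt-Nd6 overlaps that of mt-Nd5 on the opposite strand, and the sources used here do not give the strand setting of the counting.

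mt-Nd4 (chrM:10167-11544) stood at 4500, 4298, 3963 and 5639 CPM and mt-Nd4l (chrM:9877-10173) at 154, 158, 149 and 251 CPM. With its copy added mt-Nd4 stood at 4814, 4792, 4416 and 6477 CPM, and its log2 ratios for Sp6+Sp8 cKO against Sp6 cKO and Sp8 cKO went from 0.39 and 0.51 to 0.43 and 0.55. With its copy added mt-Nd4l stood at 877, 802, 790 and 1042 CPM, and these ratios went from 0.66 and 0.75 to 0.38 and 0.40. Sp6+Sp8 cKO was highest for both genes either way. mt-Nd3 (chrM:9459-9806) was the least abundant, at 41.1, 19.5, 16.3 and 29.6 CPM. As deposited, mt-Nd3 was the only mitochondrial gene highest in wildtype, and its ratio to wildtype was 0.47 (0.41 to 0.55) in Sp6 cKO and 0.40 (0.34 to 0.46) in Sp8 cKO. In the 3 cKO libraries it was also the gene with the largest share of counts on its copy. With the copy added, the levels of mt-Nd3 were 181, 167, 148 and 211 CPM, Sp6+Sp8 cKO was highest, and the log2 ratios to wildtype went from -1.07, -1.33 and -0.47 to -0.12, -0.29 and 0.22.

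The complex III subunit mt-Cytb (chrM:14145-15288), which carries the haems of the ubiquinone sites, stood at 4591, 4729, 4421 and 5882 CPM, with a log2 ratio of 0.31 for Sp6+Sp8 cKO against Sp6 cKO and 0.41 against Sp8 cKO. It has no near-identical copy.

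In complex IV, the catalytic subunit mt-Co1 (chrM:5328-6872) was the most abundant member, at 16327, 17950, 16361 and 22977 CPM, and its copy took almost none of its counts. Sp6+Sp8 cKO was 1.28 times Sp6 cKO (1.27 to 1.29) and 1.40 times Sp8 cKO (1.40 to 1.41). mt-Co2, which receives electrons from cytochrome c, stood at 1891, 1250, 1266 and 1998 CPM, and mt-Co3 (chrM:8607-9390), a structural subunit, at 2235, 2016, 1813 and 2427 CPM. As deposited, mt-Co2 in Sp6 cKO and Sp8 cKO lay below wildtype with log2 ratios of -0.60 and -0.58. With its copy added, mt-Co2 stood at 6231, 5999, 5687 and 7126 CPM and these ratios were -0.05 and -0.13. With its copy added mt-Co3 stood at 4391, 3942, 3839 and 5014 CPM, highest in Sp6+Sp8 cKO as before.

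The complex V subunits encoded in mitochondria belong to the proton channel of the membrane part. mt-Atp6 (chrM:7927-8607) stood at 3116, 2651, 2533 and 3544 CPM and mt-Atp8 (chrM:7766-7969), on the same mRNA, at 340, 307, 280 and 407 CPM. Both were highest in Sp6+Sp8 cKO, with log2 ratios of 0.42 and 0.41 against Sp6 cKO. With its copy added mt-Atp6 stood at 5259, 5162, 4674 and 7128 CPM, and its ratio went from 0.42 to 0.47 against Sp6 cKO and from 0.19 to 0.44 against wildtype.

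Adding the copies drew the 13 genes together. The width of their log2 ratios, from lowest to highest, went from 0.41 to 0.23 for Sp6+Sp8 cKO against Sp6 cKO, from 1.21 to 0.39 for Sp6 cKO against wildtype, from 1.33 to 0.33 for Sp8 cKO against wildtype and from 1.17 to 0.30 for Sp6+Sp8 cKO against wildtype. All 13 then lay above 0 in each comparison of Sp6+Sp8 cKO with another library, between 0.25 and 0.48 against Sp6 cKO, 0.33 and 0.61 against Sp8 cKO, and 0.19 and 0.49 against wildtype. The 6 genes without a copy spanned 0.31 to 0.48, 0.41 to 0.59 and 0.22 to 0.37 in these comparisons.

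**Figure D3:**
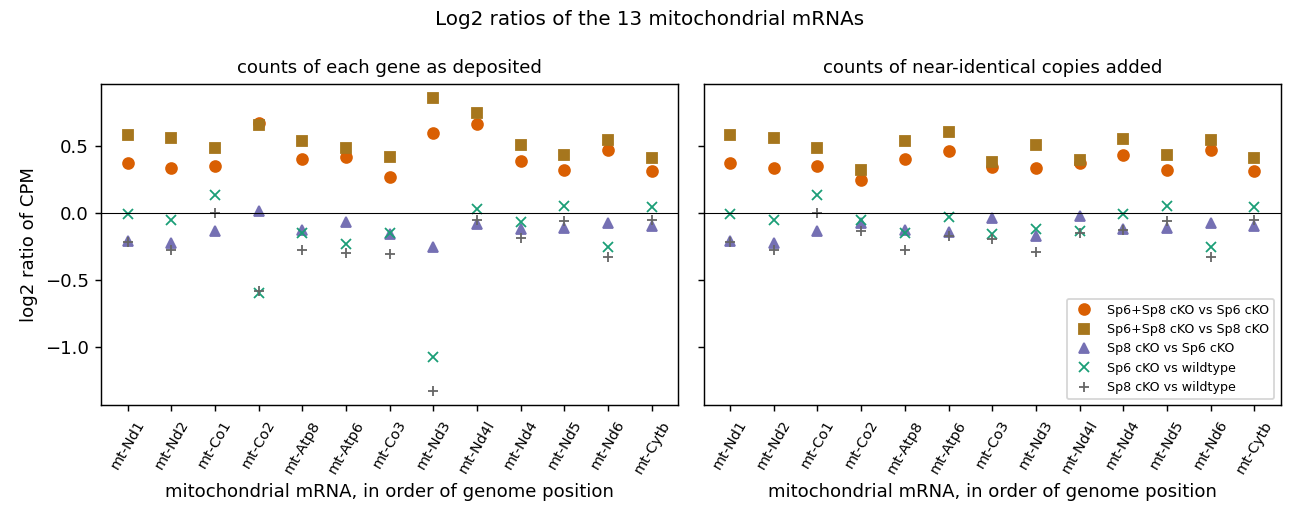
Log2 ratios of CPM of the 13 mitochondrial mRNAs in the order of their position on the mitochondrial genome, from counts as deposited (left) and with the counts of near-identical copies added (right); each symbol is 1 of 5 comparisons. Circles and squares, which compare Sp6+Sp8 cKO with the other cKO libraries, lie above 0 for each gene, and the values of mt-Co2 and mt-Nd3 in Sp6 cKO and Sp8 cKO against wildtype, as low as -1.33 on the left, lie between -0.29 and -0.05 on the right.

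Set against wildtype as deposited, 7 mitochondrial genes were higher and 1 lower by the 1.2-fold rule in Sp6+Sp8 cKO, where the shares of 16861 genes were 14.9% and 16.8%. For Sp6 cKO 0 were higher and 2 lower, beside 9.89% and 9.44% of 16884 genes, and in Sp8 cKO 0 were higher and 7 lower, beside 10.1% and 7.85% of 16878 genes. The 1 gene past the 2-fold rule in Sp6 cKO and in Sp8 cKO was mt-Nd3, beside 4.40% and 3.82% of all genes, and 0 were past it in Sp6+Sp8 cKO, beside 5.79%. With the copies added, 0 were past it in all 3. By the 1.2-fold rule the number that were lower then went from 2 to 0 in Sp6 cKO, from 7 to 4 in Sp8 cKO and from 1 to 0 in Sp6+Sp8 cKO.

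Levels per length differ widely among the mitochondrial mRNAs although they come from shared transcripts. With copies added, CPM per kilobase in Sp6+Sp8 cKO ran from 14884 for mt-Co1 over 10468 for mt-Atp6, 10418 for mt-Co2, 8159 for mt-Nd1 and 6396 for mt-Co3 down to 1017 for mt-Nd6 and 606 for mt-Nd3. As deposited, the median of the 13 was 2817, 2571, 2312 and 3096 CPM per kilobase, that of the 80 nuclear members 22.7, 21.1, 21.8 and 21.9. The highest nuclear member, Atp5b, the catalytic beta subunit of ATP synthase, reached 161, 151, 147 and 154 CPM per kilobase and lay below mt-Co1 in each library. Next among the nuclear members, by the median of the libraries, were Cox8a with 131 and Atp5a1, the alpha subunit, with 112 CPM per kilobase.

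Not every nuclear member was measurable. Cox7b2 and Cox8c were at 0 in all libraries, and Cox6a2, Cox7a1 and Cox8b had at most 4 counts in any, while 3 counts amount to 0.138, 0.233, 0.238 and 0.195 CPM. Cox6a2, Cox7a1 and Cox8b are isoforms known from striated muscle or brown fat. The 10 skeletal muscle markers summed to only 1.33 to 2.46 CPM, so muscle RNA was hardly present in these tips. The 4 brown adipocyte markers, a list that holds Cox8b, summed to 123, 94.6, 99.5 and 97.0 CPM. Of these 4, 2 reached 1 CPM in any library.

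For the nuclear members, most stayed within the size rules in the comparisons within batch 1. Of 75 measured, 3 were higher and 7 lower by the 1.2-fold rule for Sp6+Sp8 cKO against Sp6 cKO, where 11.2% of all genes were higher and 12.6% lower, both larger shares. Against Sp8 cKO 3 were higher and 17 lower, beside 11.8% and 14.6%, so the share that was lower exceeded that of all genes. With library totals without mitochondrial genes, only 11 were lower. In Sp8 cKO against Sp6 cKO 5 were higher and 2 lower, beside 6.71% and 5.82%. Past the 2-fold rule were 2 members lower in Sp6+Sp8 cKO against Sp6 cKO, 1 lower against Sp8 cKO, and 0 between Sp8 cKO and Sp6 cKO, beside 3.97%, 4.68% and 3.10% of all genes, so that each share of members lay below the background. Median log2 ratios of the 75 were -0.01, -0.07 and 0.02 in these comparisons, where all genes had -0.01, -0.02 and 0.00.

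Against wildtype the nuclear members leaned lower. In each cKO library 29.3% of the 75 had a log2 ratio above 0, where among all genes these shares were 48.5%, 48.3% and 48.1% in the cKO libraries in the order above. Their medians were -0.09, -0.11 and -0.16, where all genes had -0.01, -0.01 and -0.02. By the 1.2-fold rule 4 were higher and 10 lower in Sp6 cKO, 3 higher and 8 lower in Sp8 cKO, and 4 higher and 24 lower in Sp6+Sp8 cKO, and past the 2-fold rule were 0, 0 and 4, the last beside 5.79% of all genes. Backgrounds for the 1.2-fold rule are those given for the mitochondrial genes, and the 24 of 75 lower in Sp6+Sp8 cKO are a larger share than the 16.8% of all genes. Of the 75, 40 had their highest level in wildtype and 28 their lowest in Sp6+Sp8 cKO. The matching shares over all genes were not computed, so these counts cannot be set against a background. Many nuclear members have short transcripts, and the 842 protein-coding genes under 1000 bases compared between Sp6+Sp8 cKO and wildtype had the same median of -0.16. In Sp6 cKO and Sp8 cKO against wildtype such genes had medians of -0.05 and -0.02, nearer 0 than the -0.09 and -0.11 of the nuclear members. The part of transcript length and of batch in this difference was not tested.

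**Figure D4:**
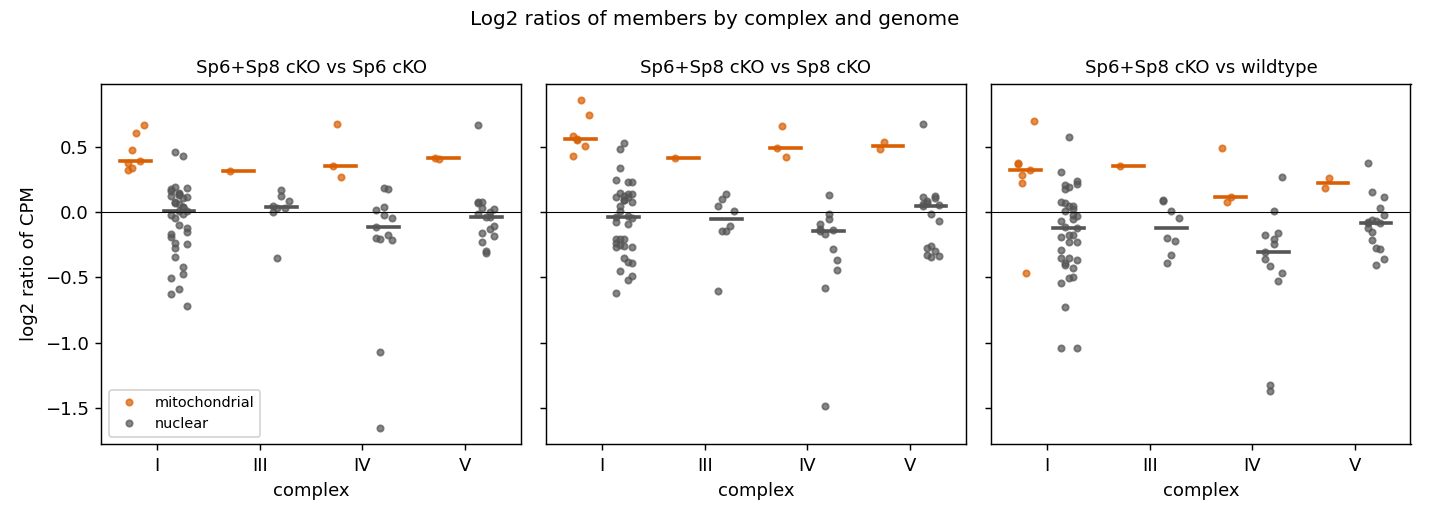
Log2 ratio of CPM of each measured member (points) by complex and genome, with the median of each set as a line, for Sp6+Sp8 cKO against Sp6 cKO, Sp8 cKO and wildtype. In the first pair of panels every mitochondrial point lies at 0.27 or higher while the nuclear points scatter around 0. The lowest points are Cox6b2 and Cox4i2 of complex IV against Sp6 cKO and wildtype, and Cox6b2 against Sp8 cKO.

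Taken by complex, the summed nuclear members of complex I had log2 ratios of -0.01, -0.0029 and -0.07 for Sp6+Sp8 cKO against Sp6 cKO, Sp8 cKO and wildtype, while the mitochondrial members of the same complex had 0.37, 0.52 and 0.35. For complex III the nuclear sum gave 0.06, -0.04 and -0.10 and mt-Cytb 0.31, 0.41 and 0.36. For complex IV it was -0.08, -0.14 and -0.28 against mitochondrial values of 0.37, 0.50 and 0.42. For complex V it was -0.0026, -0.0056 and -0.10 against 0.42, 0.49 and 0.19. In all of these the mitochondrial subunits of a complex were higher relative to its nuclear subunits. With the copies added, the mitochondrial values were 0.37, 0.53 and 0.37 for complex I, 0.33, 0.44 and 0.38 for complex IV, and 0.46, 0.61 and 0.43 for complex V. The complex V value against wildtype thus moved most, from 0.19 to 0.43. As deposited the gap between the genomes was widest in complex IV, and with copies it was widest in complex V against both other cKO libraries.

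Among nuclear members with 10 CPM or more, complex I genes had the highest and the lowest ratio of Sp6+Sp8 cKO against Sp6 cKO, Ndufb2 and Ndufa4l2. Ndufb2, an accessory subunit of the membrane arm, stood at 14.0, 11.6, 11.4 and 15.9 CPM. Its log2 ratio was 0.46 for Sp6+Sp8 cKO against Sp6 cKO and 0.48 against Sp8 cKO, with Sp6+Sp8 cKO highest and wildtype next. The core subunit Ndufs8, which carries iron-sulfur clusters, stood at 14.6, 13.9, 13.5 and 10.3 CPM and was lowest in Sp6+Sp8 cKO (-0.42 and -0.38). Ndufv2, of the NADH-oxidising module, stood at 18.1, 14.0, 14.4 and 12.4 CPM and was highest in wildtype. Ndufv3, of the same module, stood at 31.3, 30.1, 27.3 and 23.7 CPM, lowest in Sp6+Sp8 cKO. Ndufb9 stood at 13.3, 9.54, 13.7 and 12.9 CPM, with Sp6 cKO below the other 3 libraries.

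Ndufa6 and Ndufa5, accessory subunits, were the complex I members past the 2-fold rule, both lower in Sp6+Sp8 cKO than in wildtype and both below 10 CPM. Ndufa6 stood at 7.50, 5.12, 5.56 and 3.57 CPM and Ndufa5 at 2.94, 2.33, 1.83 and 1.36 CPM, so that wildtype was highest and Sp6+Sp8 cKO lowest in both. Wildtype was 2.10 times (1.54 to 2.90) Sp6+Sp8 cKO for Ndufa6 and 2.16 times (1.30 to 3.72) for Ndufa5. Both lie close to the limit, with log2 ratios of -1.04, which include the prior count and so are smaller than the plain ratios just given. With library totals without mitochondrial genes these log2 ratios were -0.99, short of the rule.

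Ndufa4 and Ndufa4l2 are named as complex I genes, but the Ndufa4 protein is now counted as a subunit of complex IV, and Ndufa4l2 is a relative known as a target of hypoxia-inducible factor. Ndufa4 (chr6:11900292-11907497) stood at 35.8, 48.2, 36.9 and 53.4 CPM, and Ndufa4l2 (chr10:127514967-127517154) at 40.8, 42.02, 43.5 and 30.3 CPM. Sp6+Sp8 cKO was thus highest for Ndufa4 and lowest for Ndufa4l2. Sp6+Sp8 cKO was 1.45 times (1.29 to 1.62) Sp8 cKO for Ndufa4, and Sp8 cKO was 1.44 times (1.27 to 1.63) Sp6+Sp8 cKO for Ndufa4l2. Against Sp6 cKO the log2 ratios were 0.15 and -0.47. The 12 genes of the hypoxia response had medians of -0.05 and 0.19 for Sp6+Sp8 cKO against Sp6 cKO and Sp8 cKO, with 0 higher and 2 lower in the first (11.2% and 12.6% of all genes) and 3 higher and 2 lower in the second (11.8% and 14.6%). Ndufa4l2 made up 53.3% of the counts of the pair in wildtype, 46.6% and 54.1% in the Sp6 cKO and Sp8 cKO libraries, and 36.2% (33.6% to 38.9%) in Sp6+Sp8 cKO.

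Complex III had 1 member that stood out, Uqcr10, a small structural subunit, at 11.96, 12.6, 19.3 and 12.7 CPM. Sp8 cKO was the high library, 1.53 times (1.25 to 1.87) Sp6 cKO and 1.61 times (1.35 to 1.93) wildtype, and the other 3 libraries lay within 0.08 of each other on the log2 scale. Uqcrq stood at 28.4, 20.1, 25.01 and 22.6 CPM, lowest in Sp6 cKO.

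Complex IV has subunits with paired isoforms. Cox4i1 is the general form of subunit 4 and Cox4i2 (chr2:152754173-152765037) a form known from lung, smooth muscle and pericytes. Cox4i1 stood at 33.2, 33.7, 32.5 and 29.3 CPM, and Cox4i2 at 7.96, 6.44, 4.52 and 2.99 CPM, from 173, 83, 57 and 46 counts. Cox4i2 was 19.4% (16.8% to 22.1%) of the pair in wildtype, 16.0% (12.97% to 19.5%) in Sp6 cKO, 12.2% (9.4% to 15.6%) in Sp8 cKO and 9.26% (6.86% to 12.2%) in Sp6+Sp8 cKO. Sp6 cKO was 2.15 times (1.48 to 3.16) and wildtype 2.66 times (1.91 to 3.77) Sp6+Sp8 cKO. The 10 markers of mural cells, a list added after Cox4i2 was seen, summed to 1051, 1025, 1124 and 993 CPM, with 0 higher and 2 lower of 9 measured by the 1.2-fold rule against Sp6 cKO (11.2% and 12.6% of all genes), and their part in the result was not tested.

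Cox6b2, the testis form of subunit 6b, had 29, 22, 19 and 7 counts, or 1.33, 1.71, 1.51 and 0.455 CPM. Sp6 cKO was 3.75 times Sp6+Sp8 cKO, with a wide interval of 1.55 to 10.4 at these low counts. Of the 6 sperm and testis markers, a list that holds Cox6b2, the other 5 were below 1 CPM in each library. The general form Cox6b1 stood at 38.5, 32.6, 32.9 and 30.0 CPM. Cox7a2l, which joins complexes III and IV in supercomplexes, stood at 12.2, 15.2, 20.1 and 14.8 CPM, highest in Sp8 cKO and lowest in wildtype. With Cox7a2 (8.92, 7.06, 8.81 and 7.99 CPM) and Cox7a1 it formed a set in which Cox7a2l held 57.2%, 67.8%, 69.3% and 64.7% of counts. Cox5b, a zinc-binding subunit, stood at 42.5, 33.3, 36.0 and 29.5 CPM and Cox6a1 at 27.3, 22.8, 25.4 and 19.7 CPM. Both were highest in wildtype and lowest in Sp6+Sp8 cKO. Of the 13 measured nuclear members of complex IV, 9 had a log2 ratio below 0 in Sp6+Sp8 cKO against Sp6 cKO, 12 against Sp8 cKO and 11 against wildtype. Among all genes the shares below 0 were 51.5%, 52.5% and 51.9% in that order.

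In complex V the alpha and beta subunits of the catalytic head, Atp5a1 and Atp5b, differed little between libraries. Atp5b stood at 308, 289, 282 and 296 CPM and Atp5a1 at 295, 267, 272 and 280 CPM. Atp5d differed more, at 67.6, 60.7, 68.3 and 55.4 CPM per kilobase. Of the 17 nuclear members of complex V, 1 was higher and 4 lower by the 1.2-fold rule in Sp6+Sp8 cKO against Sp8 cKO, beside 11.8% and 14.6% of all genes. The 3 genes for subunit c of the rotor ring, Atp5g1, Atp5g2 and Atp5g3, shared their counts as 32.6%, 27.0% and 40.4% in wildtype and as 31.7%, 25.3% and 43.1% in Sp6+Sp8 cKO. Atp5s, coupling factor B, stood at 6.67, 5.43, 5.40 and 8.71 CPM and had the highest ratio among nuclear members in Sp6+Sp8 cKO against both other cKO libraries (0.67 and 0.68). It lies below 10 CPM and was chosen after its values were seen.

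Ndufb4 and its copy Ndufb4c on chromosome 15 were the nuclear pair with the most divided counts, identical over 390 bases, with 29.8%, 24.9%, 36.8% and 25.1% on the copy, so values of Ndufb4 are uncertain. Another 12 nuclear members had near-identical copies, each of which took at most 9.1% of the counts.

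**Figure D5:**
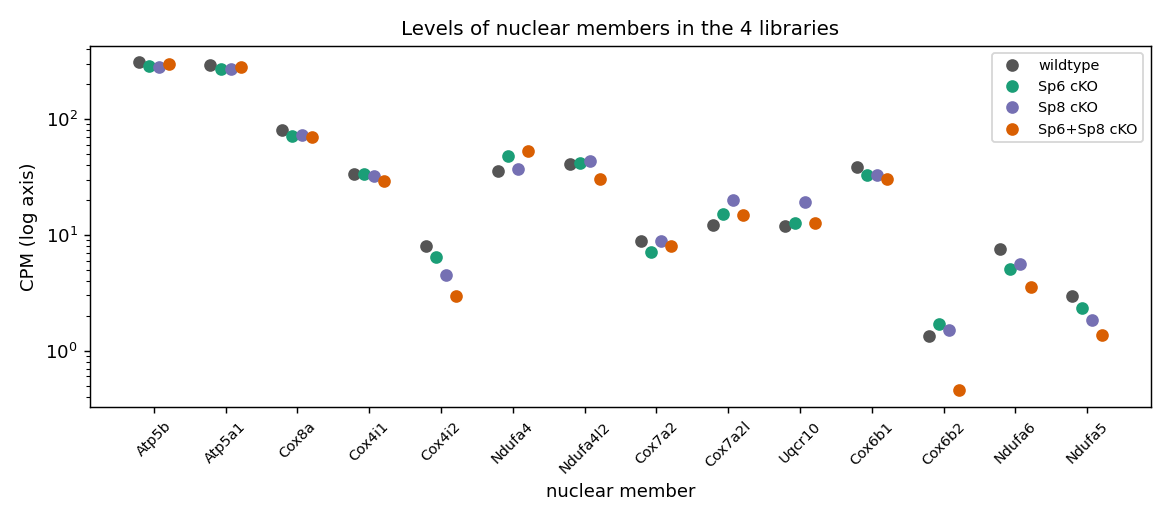
Level in CPM on a log axis of 14 nuclear members in the 4 libraries (points, 1 library each, no error bars). Atp5b and Atp5a1 barely differ between libraries, Cox4i2 runs from 7.96 CPM in wildtype to 2.99 CPM in Sp6+Sp8 cKO, Ndufa4 and Ndufa4l2 part in Sp6+Sp8 cKO, and Uqcr10 is high in Sp8 cKO.

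Promoters were available for 63 of the 80 nuclear members, as RefSeq sequence on GRCm38.p6 from 250 bases before to 50 after the start. Motifs were counted on both strands as exact letters. The NRF1 motif (GCGC, any base, then TGCGC) was in 15 of the 63 (23.8%), against 5.19% of all 27025 genes with a promoter and 10.1% of the 11444 measured ones. The ETS motif CCGGAAG was in 22.2% of members against 17.6% of measured genes, the YY1 motif AAGATGG in 15.9% against 7.79%, and the ERR motif AAGGTCA in 11.1% against 4.05%. A match describes letters, not a bound site. Both members past the 2-fold rule in complex I, Ndufa5 and Ndufa6, held the NRF1 motif, as did 13 others, among them Atp5c1 and Uqcrc1. The other nuclear members past that rule, Cox4i2 and Cox6b2, were not among the 15, and a link of motif and level was not tested. Among the matches with a distance recorded, which leave out some genes such as Ndufa6, the distance varied. It ran from 6 bases before the start in Ndufs6 to 181 in Ndufb4, which holds the motif 3 times. The lines below show 3 examples that share the same letters, with the motif in capitals: Atp5g2 (chr15:102671055-102671114, minus strand), Atp5k (chr5:108434415-108434474, minus strand) and Ndufa11 (chr17:56717677-56717736, plus strand). The motif ends 32, 40 and 50 bases before the start.
Atp5g2: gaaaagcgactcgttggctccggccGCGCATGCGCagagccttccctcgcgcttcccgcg
Atp5k: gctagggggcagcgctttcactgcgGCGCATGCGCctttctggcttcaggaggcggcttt
Ndufa11: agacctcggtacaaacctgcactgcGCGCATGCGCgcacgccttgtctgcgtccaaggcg

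Other genes of the mitochondrial pathway were taken from lists, described by counts and medians beside the all-gene medians of -0.01 and -0.02. The background for each count by the 1.2-fold rule is 11.2% of all genes higher and 12.6% lower against Sp6 cKO, and 11.8% and 14.6% against Sp8 cKO. Complex II, which is wholly nuclear, had medians of 0.00 and -0.12 for Sp6+Sp8 cKO against Sp6 cKO and Sp8 cKO, with 0 of 4 past the 1.2-fold rule. The 13 measured electron carrier genes had 0.05 and 0.07, with 3 and 2 higher and 0 lower, among them Cycs, cytochrome c, with 0.31 and 0.33. Of 19 measured complex IV assembly genes 1 was higher and 0 lower against Sp6 cKO, and 2 were higher and 1 lower against Sp8 cKO. Cox20, a chaperone of mt-Co2, gave 1.30 and 0.92. The 9 genes of mitochondrial transcription had -0.02 and -0.11. Tfam, which packages mitochondrial DNA and starts its transcription, gave log2 ratios of -0.20 and -0.32, and Polrmt, the polymerase, -0.01 and 0.06. Mterf4 was the 1 gene of that list past the 1.2-fold rule, and it was lower in both (-0.64 and -0.69).

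The 16 genes of mitochondrial RNA maturation and stability had medians of 0.15 and 0.19. By the 1.2-fold rule 4 were higher and 0 lower against Sp6 cKO, and 6 higher and 1 lower against Sp8 cKO. Trmt10c, a part of the enzyme that cuts the 5′ ends of mitochondrial tRNAs, gave 0.92 and 0.80, Fastkd5, needed to process mRNAs that no tRNA flanks, 0.53 and 0.36, and Fastkd1 0.36 and 0.30. Lrpprc, which with Slirp protects mitochondrial mRNAs, gave 0.12 and 0.20, short of the rule.

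Of 77 mitochondrial ribosomal protein genes 3 were higher and 6 lower against Sp6 cKO, and 4 higher and 5 lower against Sp8 cKO, with medians of -0.01 and 0.00, all smaller shares than the background. The 13 regulators of mitochondrial biogenesis had a median of 0.09 in both, with 3 and 2 higher and 0 lower. Pprc1 gave 0.34 and 0.27 and Yy1 0.29 and 0.28, while Nrf1 and Gabpa, which bind many promoters of nuclear members, lay between -0.05 and 0.02. Genes of the TCA cycle had medians of 0.02 and -0.00026, and those of glycolysis -0.05 and -0.08.

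The mitochondrial rRNAs, which have no long poly-A tails and are mostly lost when RNA is selected by poly-A, were counted at a low level. mt-Rnr1 had 345, 238, 90 and 416 counts and mt-Rnr2 323, 220, 94 and 496. Sp8 cKO was lowest and Sp6+Sp8 cKO highest, as for most mitochondrial mRNAs, but over a wider span, with log2 ratios of 0.55 and 0.91 against Sp6 cKO and 1.90 and 2.09 against Sp8 cKO. None of the 22 mitochondrial tRNA genes reached 1 CPM.

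Markers of cell types also differed between the libraries. Counts of markers higher or lower are by the 1.2-fold rule for Sp6+Sp8 cKO. Beside them stand 11.2% of all genes higher and 12.6% lower against Sp6 cKO, and 11.8% and 14.6% against Sp8 cKO. The 7 osteoclast markers summed to 124, 222, 346 and 341 CPM, and against Sp6 cKO 6 of 7 were higher by the 1.2-fold rule in Sp6+Sp8 cKO, none of them at 0. Against Sp8 cKO 3 were higher and 1 lower, and the median log2 ratio of the list was 0.90 against Sp6 cKO and 0.35 against Sp8 cKO. The 8 nail and hair keratins had medians of -1.002 and -1.14 in these comparisons, and the 5 fibroblast markers summed to 13364, 13575, 13020 and 10686 CPM. The 5 suprabasal keratinocyte markers summed to 16066, 15860, 12649 and 11751 CPM, and the 6 neutrophil markers to 22.9, 80.3, 52.1 and 104 CPM. Erythroid markers summed to 267, 339, 692 and 353 CPM, macrophage markers to 220, 297, 307 and 263 CPM, and T cell markers to 2.90, 19.5, 7.14 and 17.7 CPM. Endothelial markers summed to 177, 185, 190 and 145 CPM, with 3 of 4 lower against Sp6 cKO and 4 of 4 against Sp8 cKO. Osteoblast markers summed to 289, 374, 395 and 335 CPM, with 4 of 6 lower in both. The 10 genes that respond to handling of tissue summed to 745, 765, 645 and 808 CPM, with 2 higher and 3 lower against Sp6 cKO and 4 higher and 0 lower against Sp8 cKO. The part of these cells and of handling in the mitochondrial difference was not tested.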

How the data were processed

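RNA of whole digit tips was selected by poly-A, made into stranded libraries and sequenced in pairs, per the labels' protocols. The authors deposited 1 table of estimated counts per gene, in which 84.6% to 87.1% of the values above 0 were whole numbers. Salmon, STAR, featureCounts, edgeR, deepTools and Trim Galore 0.6.4 are listed with GRCm38 in the submitters' processing notes, with no roles. The sources used here do not give the annotation release or the counting strand setting. Estimated counts were divided by library totals scaled with TMM (edgeR 4.0.16, R 4.3.3) to give CPM, and log2 ratios used a prior count of 2. Column totals, as deposited, were used for depth. In the table, 1 column was left unused because its name belongs to no sample in the labels. Intervals of ratios are exact binomial (Clopper-Pearson) intervals conditional on the rounded counts of both libraries. Lengths came from GENCODE M21, with all 93 members found, and copies were annotated pseudogenes that matched a member with at least 98% identity over at least 80% of their length (blastn 2.17.0). The members and lists were chosen with earlier results of these data known. Single genes were named by rule: Sp6 and Sp8, all mitochondrial mRNAs, each nuclear member past the 2-fold rule and isoform sets. To these came, in each comparison, the 5 nuclear members with the highest and the 5 with the lowest log2 ratio, given 10 CPM in the higher library. From each other list came up to 4 genes by absolute log2 ratio. Of the genes so named, those the results turn on are described. Some list genes with small ratios, such as Polrmt, Nrf1 and Gabpa, were described outside this order. A gene the rule names is not reported here. The code was tested on simulated data. Alternatives changed the scaling, the prior count, the CPM floor and the mitochondrial genes summed.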

Additional observations from a re-analysis of the deposited data

How the results depend on the processing

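Each result is from 1 library a group, so no library could be left out, and a p-value or test across libraries was not possible. No paired analysis was possible because each group has 1 library. Of the values recomputed under 11 alternatives, 1194 stayed within their counting interval or within 1.5 times the count, 161 moved and 3 changed sign. Scaling without the members, a prior count of 0.5, no floor on low values and Ndufa4 with Ndufa4l2 left out of complex I moved none. Many of these values could not change. Sums, shares and genome ratios use neither the prior count nor the floor, and shares and genome ratios use no scaling. Leaving out Ndufa4 with Ndufa4l2 bears only on the nuclear sum of complex I. The 1194 thus include values that were fixed in advance. Among the scalings, the median of all genes shifted by -0.01 to 0.06. The log2 ratio of the mitochondrial sum with DESeq2 size factors was 0.37 for Sp6+Sp8 cKO against Sp6 cKO, 0.51 against Sp8 cKO, 0.38 against wildtype, -0.14 for Sp8 cKO against Sp6 cKO and 0.0099 for Sp6 cKO against wildtype. With library totals it was 0.41, 0.52, 0.40, -0.11 and -0.0061 in that order, and -0.12 for Sp8 cKO against wildtype. With library totals without mitochondrial genes it was 0.43, 0.55, 0.42, -0.12 and -0.0064. The nuclear sum for Sp6+Sp8 cKO against Sp6 cKO, Sp8 cKO and wildtype was 0.031, -0.0048 and -0.088 with library totals and 0.054, 0.024 and -0.065 without mitochondrial genes in them. In that last scaling, 5 nuclear members were higher and 11 lower against Sp8 cKO, 1 was lower in Sp8 cKO against Sp6 cKO (also 1 with plain library totals), and 2 members were past the 2-fold rule against wildtype. With a floor of 10 CPM, 0 members were past the 2-fold rule in Sp6+Sp8 cKO against Sp6 cKO, Sp8 cKO and wildtype, so those calls rest on genes below it, and 4 nuclear members were lower against Sp6 cKO and 1 in Sp8 cKO against Sp6 cKO. Without the 4 shortest mitochondrial mRNAs, the mitochondrial share of counts in wildtype, Sp6 cKO, Sp8 cKO and then Sp6+Sp8 cKO was 4.63%, 4.62%, 4.27% and 6.11%, beside 4.72%, 4.70%, 4.35% and 6.23% with all 13. The 2-fold count against wildtype was then 0 in Sp6 cKO and 0 in Sp8 cKO, since mt-Nd3 was left out. Both alternatives on copies were chosen after seeing the data. With copies added, the shares were 5.70%, 5.74%, 5.33% and 7.56%, the 2-fold counts in Sp6 cKO and Sp8 cKO against wildtype 0 and 0, and the mitochondrial sums 0.36, 0.48 and 0.38 for Sp6+Sp8 cKO against Sp6 cKO, Sp8 cKO and wildtype, -0.12 for Sp8 cKO against Sp6 cKO, and 0.021 and -0.10 for Sp6 cKO and Sp8 cKO against wildtype. The mitochondrial over the nuclear log2 ratio of Sp8 cKO against wildtype went from -0.04 to -0.014. With only the 6 mRNAs without a copy, the shares were 1.91%, 1.90%, 1.74% and 2.49%, the 2-fold counts again 0 and 0, and 6, 6 and 4 mRNAs were higher in Sp6+Sp8 cKO against Sp6 cKO, Sp8 cKO and wildtype. The sums were then 0.34 against Sp6 cKO, 0.35 against wildtype, -0.15 for Sp8 cKO against Sp6 cKO and -0.14 for Sp8 cKO against wildtype. Depth limits the members below 10 CPM, such as Cox6b2 with 7 to 29 counts.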
